A study of Mus musculus with 4 samples.

Results

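The Myc, Max and Mxd network was followed in single-cell RNA sequencing of DLA (Dalton's lymphoma ascites) tumors grown in mice. It was taken as 10 genes chosen by symbol, Myc, Mycn, Mycl, Max, Mxd1, Mxd4, Mxi1, Mnt, Mga and Mlx, and each symbol matched 1 of the 32285 genes counted. Control 1 and Control 2 came from tumor-bearing mice labelled untreated, which the supplement calls vehicle controls. Treated 1 and Treated 2 came from tumor-bearing mice given SP11, an inhibitor of the chaperone HSP90, by mouth at 30 mg/kg for 17 days. In both groups DLA cells had been injected into the peritoneal cavity of Swiss albino mice, so the 4 libraries share 1 transplanted line and hold host cells beside it. The age of the mice and the number of mice behind each library are not given in the sources used here. The p-values of SP11 against control measure the spread between these libraries, which may be technical in part. Fits of cell classes and phases allow for the library, so their p-values measure the spread that remains.

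MYC proteins act as pairs with MAX, which bind the DNA word CACGTG (the E-box) and raise transcription of genes for ribosome assembly, nucleotide synthesis and growth. MXD1, MXD4, MXI1 and MNT compete with MYC for MAX and recruit SIN3 and histone deacetylases, which lower the same genes, and MGA joins MAX to a Polycomb complex. MLX pairs with the glucose-responsive MLXIP and MLXIPL and with some of the MXD proteins, and the MXD genes are known for rising when blood cells mature and stop dividing.

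The 4 libraries held 5332 barcodes, and 4404 were kept, those that had 200 or more detected genes and no more than 10% of their unique molecular identifiers (UMIs) from mitochondrial genes. Tumor cells were the kept cells with at least 5 UMIs of Krt8 and Krt18, 845 and 528 in the control libraries and 1256 and 582 in the treated ones, with 9477943 to 12287495 UMIs per library. Although the labels call DLA a lymphoma, Krt7 was found in 99.4% to 99.8% of the tumor cells of each library and Epcam, an epithelial adhesion gene, in 80.3% to 93.6%. The other epithelial markers did not all follow, since Cldn3 and Cldn7 had 0 UMIs and Cdh1 was found in at most 0.758% of cells. A list of 11 lymphocyte genes summed to 2.38 and 2.22 CPM (UMIs of a gene per 1000000 UMIs of the cells summed) in control tumor cells and to 61.6 and 35.3 after SP11, so the cells are called by their keratins here. RNA of other cells was higher in the tumor cells of both treated libraries, where 5 erythroid genes summed to 10615 and 4740 CPM against 267 and 178, and 6 macrophage markers, all detected in every library, to 184 and 72.4 against 23.2 and 22.4. Of the tumor cells, 2.13% and 5.49% in the controls and 10.2% and 13.2% after SP11 also passed an immune gate. Immune classes carry the name of the gate of marker UMIs they passed, in cells with at most 1 keratin UMI. The controls had 14 and 9 macrophages and no B cells, while Treated 1 and Treated 2 had 163 and 114 macrophages and 145 and 139 B cells, and only Treated 2 had over 20 T cells (65) and neutrophils (47). Of the barcode strings, 896 occurred in more than 1 library and took up 1875 of the 5332 barcodes, with 60 to 359 shared by each pair of libraries. Values without them are given beside the results they change.

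The start regions of Mxd4, Mnt, Max and Mxd1 are shown because the results turn on Mxd4 and Mnt, which differed between cell classes, on their shared partner Max, and on Mxd1, which marked neutrophils. RefSeq windows of 300 bases (build GRCm38.p6, 250 before to 50 after the start) were available for 9 of the 10 genes, and 4 of them, Max, Mxd4, Mnt and Mlx, held CACGTG, which reads the same on both strands. Over all genes, 2349 of 32851 windows held it (7.15%). The first 260 bases of 4 windows follow, 5′ to 3′, with the word in capitals. They lie at chr5:34187701-34187960 on the minus strand for Mxd4, chr11:74830674-74830933 on the plus strand for Mnt, chr12:76962239-76962498 on the minus strand for Max and chr6:86669150-86669409 on the minus strand for Mxd1, whose window has no match.
Mxd4: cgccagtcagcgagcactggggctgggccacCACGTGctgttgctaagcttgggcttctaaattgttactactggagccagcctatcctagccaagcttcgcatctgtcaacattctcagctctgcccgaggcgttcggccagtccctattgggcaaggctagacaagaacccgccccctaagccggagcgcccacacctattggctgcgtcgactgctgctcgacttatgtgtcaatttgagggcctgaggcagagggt
Mnt: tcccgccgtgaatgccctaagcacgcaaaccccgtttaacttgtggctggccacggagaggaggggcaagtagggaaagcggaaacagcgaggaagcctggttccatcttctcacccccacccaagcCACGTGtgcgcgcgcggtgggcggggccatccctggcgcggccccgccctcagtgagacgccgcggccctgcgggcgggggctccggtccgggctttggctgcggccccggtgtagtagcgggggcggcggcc
Max: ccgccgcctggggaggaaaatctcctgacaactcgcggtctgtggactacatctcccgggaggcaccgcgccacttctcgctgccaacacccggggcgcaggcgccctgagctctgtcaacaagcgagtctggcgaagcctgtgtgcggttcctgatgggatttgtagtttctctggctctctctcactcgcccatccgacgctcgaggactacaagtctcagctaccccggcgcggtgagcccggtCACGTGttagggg
Mxd1: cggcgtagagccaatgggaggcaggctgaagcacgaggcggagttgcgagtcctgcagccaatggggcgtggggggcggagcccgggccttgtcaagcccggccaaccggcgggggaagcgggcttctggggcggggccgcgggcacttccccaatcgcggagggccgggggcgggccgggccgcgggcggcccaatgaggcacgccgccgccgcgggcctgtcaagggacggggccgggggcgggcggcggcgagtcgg
The word begins 219 bases before the start in Mxd4, 123 in Mnt and 3 in Max. A match describes the letters of the window and no binding was measured.

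In tumor cells Max, Mxi1 and Myc were the most abundant members, and Mycn and Mycl were not detected. A level in CPM is the UMIs of a gene among all UMIs of the cells summed, each UMI standing for 1 captured transcript, so it is a share of the RNA rather than an amount per cell. Myc (ENSMUSG00000022346, chr15:61985391-61990374, plus strand), the network's main activator, stood at 28.0 and 33.3 CPM in the controls (first Control 1, then Control 2, as throughout). After SP11 it was at 26.7 (Treated 1) and 30.9 (Treated 2). The groups overlapped, and the replicates of each group lay further apart than the group means, 30.7 ± 3.78 and 28.8 ± 2.98 (SD, n = 2 each). Its paralogs Mycn (chr12:12936093-12941914) and Mycl (chr4:122995652-123002485), which drive growth in nervous tissue and some lung tumors, had 0 UMIs in all 4 libraries, which allows a level of up to 0.317 CPM in the shallowest. Myc was therefore the sole member of its family detected at this depth.

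Max (ENSMUSG00000059436, chr12:76937269-76962201, minus strand), the partner that both activators and repressors need, was at 34.7 and 38.2 CPM without SP11 and at 37.5 and 43.0 with it. It was above Myc in all 4 libraries. Mxi1 (ENSMUSG00000025025, chr19:53310518-53375810, plus strand), a MAX-binding repressor, was at 33.7 and 31.0 CPM without SP11 and at 34.3 in both treated libraries, a range that overlapped that of Myc. Among the other members, the ranges over the 4 libraries were 16.4 to 23.3 for Mga, 15.3 to 16.6 for Mlx, 7.49 to 13.3 for Mxd4, 6.12 to 9.73 for Mnt and 3.69 to 7.57 for Mxd1. In this order of levels the ranges of Mxi1 and Myc, of Mga and Mlx, of Mxd4 and Mnt, and of Mnt and Mxd1 overlapped, while those of Max and Mxi1, of Myc and Mga, and of Mlx and Mxd4 did not. Max and Mxd1 each overlap another annotated gene on the same strand (Gm47218 and Gm44292), so a few of their UMIs could belong to it or have been dropped.

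**Figure D1:**
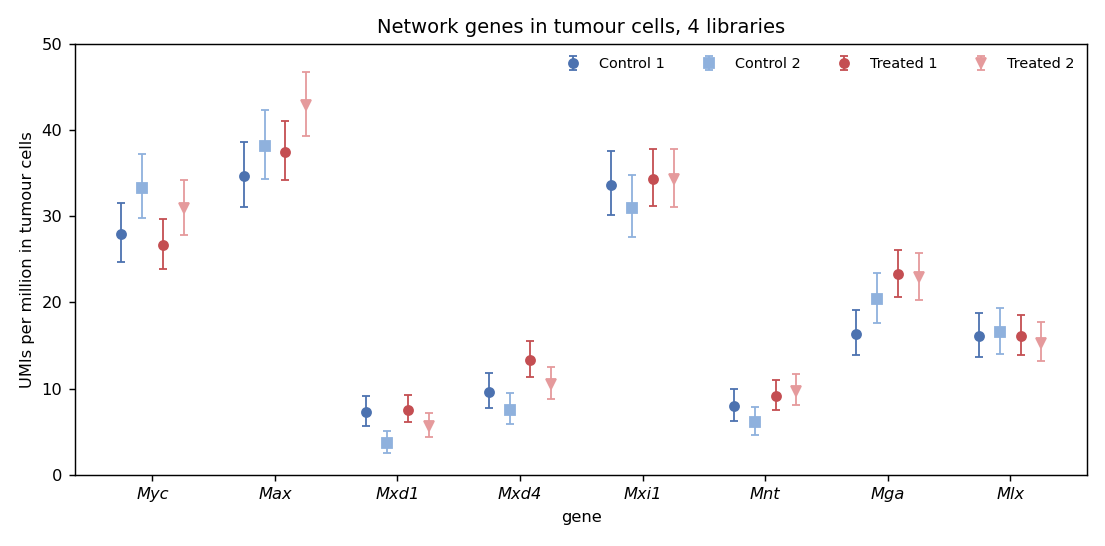
CPM (y axis) of the 8 detected members (x axis) in the tumor cells of each library, with exact 95% Poisson intervals that cover counting error only. Max, Mxi1 and Myc sit between 26.7 and 43.0 CPM in every library and Mxd1 between 3.69 and 7.57.

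Single tumor cells mostly held 0 or 1 UMI of a member. After every cell was thinned to 5000 UMIs, which left out shallower cells and kept 799, 511, 1151 and 575 cells, a Myc UMI was found in 12.9% and 14.5% of control cells and in 13.4% and 16.9% of treated cells. Without thinning the shares were 25.3%, 40.3%, 22.2% and 43.8%, in the order of the median depths of 10935, 17214, 8891.5 and 19843 UMIs per cell. At 5000 UMIs no cell had more than 3 UMIs of Myc, and the highest number of any member in a cell was 4, for Max in Treated 1. The share of cells with a Mga UMI was 8.28% ± 0.198 in the controls and 10.7% ± 0.129 in the treated libraries (SD, n = 2 each, two-sided exact permutation p = 0.333, the smallest p that 2 against 2 allows), and no share of the other members passed either, with adjusted p = 1 for all 10.

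SP11 against control was then tested in the tumor cells, the comparison the design was made for. No member was called: 0 of the 8 tested passed an adjusted p of 0.05 in edgeR's quasi-likelihood test, where 2.31% of all 11588 genes passed (1.81% higher, or 210 genes, and 0.501% lower, or 58). At an unadjusted p under 0.05 the count was also 0 of 8, beside 14.6% of all genes. DESeq2 called 0 of 8, beside 1.29% of all genes. On the log2 scale Myc differed by -0.22 (SE 0.14, 95% interval -0.51 to 0.07, adjusted p = 0.489). Over 16 alternatives the difference ran from -0.32 to -0.02 and the adjusted p from 0.268 to 0.978. Max differed by 0.01 (interval -0.26 to 0.28) and Mxi1 by -0.04 (-0.32 to 0.24). Library totals in place of TMM scaling moved the median of all genes from -0.0039 to 0.12 and with it the sign of Mxi1 (0.09).

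In CPM, the levels of Mxd4, Mxi1, Mnt and Mga, which all pair with MAX and not with MYC, were above both controls in both treated libraries. None of these differences passed the test. For Mxi1 the edgeR difference given above was below 0 with TMM scaling and above 0 with library totals. Mxd4 (ENSMUSG00000037235, chr5:34173883-34187720, minus strand) was at 9.64 and 7.49 CPM against 13.3 and 10.6 after SP11, a log2 difference of 0.36 (SE 0.20, interval -0.08 to 0.79, edgeR adjusted p = 0.439). Mnt (ENSMUSG00000000282, chr11:74830920-74845725, plus strand) was at 7.98 and 6.12 against 9.11 and 9.73, a difference of 0.29 (interval -0.13 to 0.70). Mga (ENSMUSG00000033943, chr2:119897228-119969581, plus strand) was at 16.4 and 20.4 against 23.3 and 22.9, a difference of 0.21 (interval -0.11 to 0.53). The CPM of the groups thus did not overlap for 4 of 8 members, all in this direction, beside 44.9% of all genes tested (36.8% in this direction and 8.12% in the other). Mxd1 (ENSMUSG00000001156, chr6:86647042-86669161, minus strand) overlapped between the groups at 7.26 and 3.69 against 7.57 and 5.69, and Mlx (ENSMUSG00000017801, chr11:101087277-101092207, plus strand) differed by -0.18 (interval -0.51 to 0.15).

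**Figure D2:**
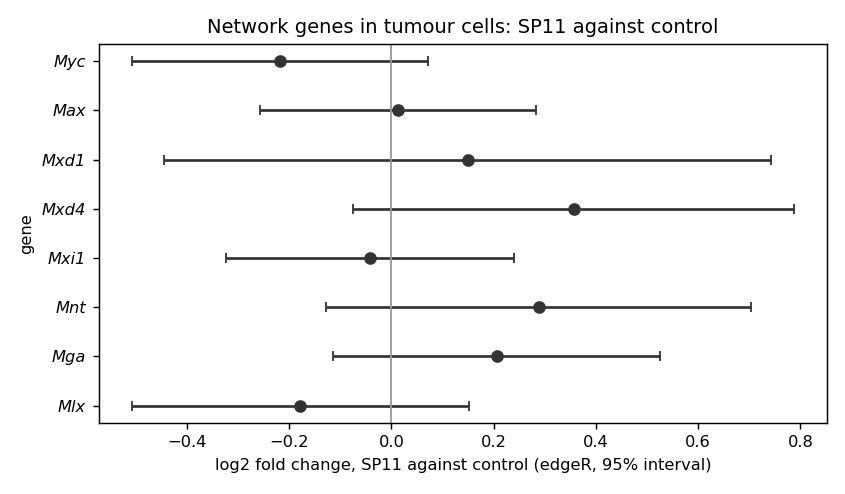
Log2 fold change of SP11 against control in tumor cells (x axis) for the 8 tested members (y axis), as edgeR estimates with 95% intervals. All 8 intervals include 0, from Myc and Mlx on the lower side to Mxd4 at 0.36.

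Few genes around the network were called. Of 16 tested partners and corepressors (SIN3, HDAC, NCOR and Polycomb subunits, Mxd3 and Mlxip), 0 were called by edgeR or DESeq2 and 4 had an unadjusted p under 0.05, as did 14.6% of all genes. Of 17 MYC cofactors (TRRAP, RUVBL1 and others) 0 were called and 3 had an unadjusted p under 0.05, and of 16 genes for MYC turnover and of 9 genes known to be repressed by MYC, 0 were called and 0 had such a p, as for 3 targets of MLX. DESeq2 called 0 in these lists too. Among 39 tested genes known to be activated by MYC, 2 were higher and 0 lower, beside 1.81% and 0.501% of all genes. Their median log2 difference was -0.07, beside -0.0039 for all genes.

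Cad, which starts pyrimidine synthesis, rose in the treated libraries from 23.1 and 24.2 CPM to 39.3 and 41.1, a log2 fold change of 0.64 (SE 0.13, edgeR adjusted p = 0.0124). The groups lay well apart, but without Control 1 the adjusted p was 0.0971 and without Control 2 it was 0.132. The other call was Ccnd2, a cyclin of the G1 phase, with 30 and 13 UMIs after SP11 against 1 and 2 (edgeR adjusted p = 0.0222). Ccnd2 was at 224 and 244 CPM in the B cells of the treated libraries against 2.44 and 1.07 in their tumor cells, and it no longer passed the filter on low counts once tumor cells that also passed an immune gate were left out. Its call also ended under DESeq2 (adjusted p = 0.138), without Control 1, Control 2 or Treated 1 (0.180, 0.177 and 0.212), and without barcodes found in several libraries (0.0539).

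Between cell classes several members differed. Tumor cells had less Mnt, Mxd4 and Mxi1 than macrophages, more Mxi1 than B cells, and far less Mxd1 than neutrophils, and these differences passed edgeR's test with and without a filter on low counts. Lower Mnt, Mxd4 and Mga than in B cells passed only with the filter. These classes were compared as 10 sums of at least 20 cells in 1 edgeR fit with the library as a block, in which all immune sums came from treated libraries and the T and neutrophil classes rest on 1 sum each. Immune sums were small (46638 to 258696 UMIs), so that several levels rest on under 10 UMIs. The filter kept genes at 39.7 CPM or more in at least 1 sum, and 5 of the 6 members it kept (Mxd1, Mxd4, Mxi1, Mnt and Mga) reached that in immune sums only, so they were tested through the cells where they were high, while Myc and Mlx were not kept. The class contrasts call large shares of all 6464 genes tested, 62.8% against macrophages (31.8% higher and 31% lower in tumor cells), 54% against B cells (27.4% and 26.6%), 31% against T cells (17.9% and 13.1%) and 40.3% against neutrophils (27.5% and 12.9%). The counts of members, 3 of 6, 4 of 6, 0 of 6 and 1 of 6, are given for completeness and are no result about the network as a whole. With library totals in place of TMM, the calls against T cells split as 716 higher and 945 lower in place of 1159 and 846. DESeq2 called 1, 0, 0 and 1 of the 6 in the same order (Mnt and Mxd1). Of all genes it called 44.2%, 36.1%, 15.7% and 19.6%. Against T cells 1 member had an unadjusted edgeR p under 0.05, as did 39.9% of all genes. In the immune sums 10 epithelial genes stood at 5.69% to 10.0% of their tumor level and erythroid genes at 60437 to 260710 CPM, and the part of RNA from other cells in these differences was not tested.

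Mnt, a broadly expressed repressor that opposes MYC, was at 57.1 and 57.2 CPM in the macrophages of Treated 1 and Treated 2 (11 and 14 UMIs) and at 9.11 and 9.73 in their tumor cells. Both macrophage sums were above all 4 tumor sums, with a log2 difference of tumor against macrophage of -2.53 (SE 0.48, edgeR adjusted p = 5.33e-07). The call held under all 13 alternatives (-2.62 to -2.32), among them the fit without the filter (adjusted p = 2.19e-05). B cells were between, at 25.6 and 23.2 CPM, a difference of -1.53 (SE 0.64, adjusted p = 0.0331) that was lost in 6 of 13 alternatives, with an adjusted p of 0.489 once barcodes found in several libraries were left out.

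Mxd4, which is known for marking resting cells, was at 62.3 and 20.4 CPM in macrophages (12 and 5 UMIs) and at 32.0 and 34.8 in B cells. All 4 of these sums were above the highest tumor sum, 13.3. The log2 difference of tumor cells was -1.65 against macrophages (SE 0.51, edgeR adjusted p = 0.00242) and -1.72 against B cells (SE 0.55, adjusted p = 0.00428). Without the filter the edgeR adjusted p was 0.0274 against macrophages and 0.0619 against B cells. DESeq2 called neither difference, with an adjusted p of 0.0681 against macrophages. Against B cells the difference was -0.79 (adjusted p = 0.434) without barcodes found in several libraries. In the T cells of Treated 2 Mxd4 had 4 UMIs, or 62.0 CPM (exact interval 16.9 to 159), and in neutrophils 0.

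Mxi1 went opposite ways in the 2 larger immune classes. Its level was 67.5 and 94.0 CPM in macrophages (13 and 23 UMIs), against 34.3 in the tumor cells of both libraries, and only 6.40 and 7.73 in B cells (1 and 2 UMIs). Tumor cells were lower than macrophages by a log2 difference of -1.19 (SE 0.33, edgeR adjusted p = 0.000659). They were higher than B cells by 2.08 (SE 0.69, edgeR adjusted p = 0.00639). Without the filter the edgeR adjusted p was 0.0139 and 0.00267. Both calls were lost under DESeq2, with an adjusted p of 0.0703 against macrophages and 0.0656 against B cells. Pooled over both treated libraries the B cell level was 0.211 of the tumor level (counting interval 0.0434 to 0.618). By library it was 18.6% and 22.5% of the tumor level, beside 8.34% and 5.69% for the epithelial genes.

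Mga, the large MAX partner of a Polycomb complex, was higher in B cells through 1 library. It was at 25.6 CPM in Treated 1 (4 UMIs) and 73.4 in Treated 2 (19 UMIs), against 23.3 and 22.9 in their tumor cells, so only the B cells of Treated 2 were apart. The fitted difference of tumor against B cells was -1.39 (SE 0.42, edgeR adjusted p = 0.00225), but the adjusted p was 0.266 in DESeq2 (-1.15) and 0.0511 without the filter (-1.07). Max was not called in any of the 4 contrasts, with a log2 difference of tumor cells from -0.97 (SE 0.76) against neutrophils to 0.20 (SE 0.40) against macrophages. Its ratio of neutrophil to tumor level, 2.26, had a counting interval of 0.731 to 5.28.

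Mxd1, a repressor known for its rise as myeloid cells mature, was concentrated in neutrophils. The 47 neutrophils of Treated 2 held 42 UMIs of Mxd1, or 901 CPM (exact interval 649 to 1217), where its tumor cells were at 5.69. The 8 neutrophils of Treated 1 held 7 UMIs, the 3 of Control 1 held 2, and the single one of Control 2 held 0, so the gene was seen in neutrophils of 3 of 4 libraries. Over both treated libraries the neutrophil level was 134 times the tumor level (counting interval 95.3 to 185). The edgeR log2 difference of tumor cells was -6.75, and -7.36 to -6.74 over the 12 alternatives that gave a value. Only the neutrophil sum of Treated 2 entered the main fit, so its spread was taken from the other classes. Leaving out a treated library gave no class fit, so this difference has no replicate. Mxd1 was at 10.4 and 24.5 CPM in macrophages, 6.40 and 7.73 in B cells and 15.5 (1 UMI) in T cells, all far below. At 500 UMIs per cell, 38.3% of the neutrophils of Treated 2 (median 703 UMIs before thinning) had a Mxd1 UMI against 0.515% of its tumor cells (median 19843 UMIs), and before thinning the shares were 51.1% and 11.3%.

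Among the immune sums of at least 20 cells, erythroid RNA was also highest in the neutrophils of Treated 2, at 260710 CPM. In the smaller sets it was at 511677 CPM in the 8 neutrophils of Treated 1, 1183 in the 3 of Control 1 and 762248 in the 1 of Control 2. In the 37 neutrophils of Treated 2 with at most 5% erythroid UMIs, Mxd1 had 37 UMIs, or 1307 CPM of the UMIs outside the 5 erythroid genes. In the 10 with more it had 5 UMIs and was at 811 on the same scale. In 393 other barcodes of Treated 2 with more than 50% erythroid UMIs and at most 1 UMI of the neutrophil gate, it had 3 UMIs and was at 39.3, and in 438 such barcodes of Treated 1 it had 4 UMIs and was at 74.9. The part of RNA from other cells in the Mxd1 level of neutrophils was not tested.

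Myc had few UMIs in the immune classes and could not be tested in the same fit, where it did not pass the filter on low counts. Macrophages held 2 and 4 UMIs (10.4 and 16.3 CPM), B cells 3 and 4 (19.2 and 15.5), and T cells and neutrophils 0, which allows up to 46.5 and 64.3 CPM. Over the macrophages, B cells, T cells and neutrophils of the treated libraries Myc had 13 UMIs, or 13.3 CPM (exact interval 7.09 to 22.8). Their tumor cells were at 28.8 (26.7 to 31.0). Fitted without the filter, tumor cells were higher than macrophages by a log2 difference of 1.35 (SE 0.57, edgeR adjusted p = 0.0713) and than B cells by 0.94 (SE 0.56, adjusted p = 0.310), neither of which passed. Mlx, also untested, was at 26.0 and 20.4 CPM in macrophages and 19.2 and 34.8 in B cells, and Mycn and Mycl had 0 UMIs in every class.

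**Figure D3:**
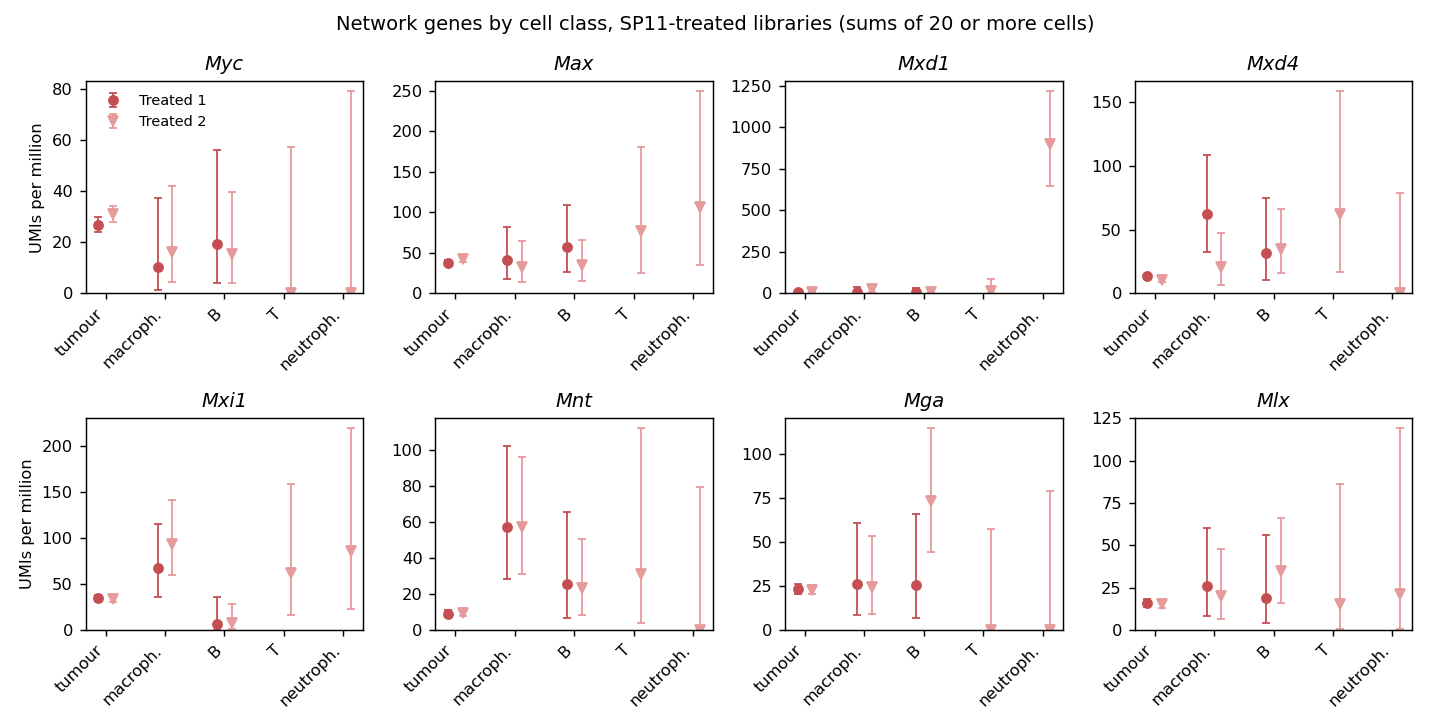
CPM (y axis, a scale of its own in each panel) of the 8 detected members in 5 cell classes (x axis) of the treated libraries, with exact 95% Poisson intervals that cover counting error only. Mnt is highest in macrophages at 57.1 and 57.2, Mxd1 in neutrophils at 901, and Myc is at 10.4 to 19.2 in macrophages and B cells, with 0 UMIs in T cells and neutrophils.

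Seen as a share of all UMIs of the 10 genes, Myc made up 18.2%, 21.3%, 15.9% and 17.9% in the tumor cells of the 4 libraries. In macrophages it made up 3.45% and 5.63% (2 of 58 and 4 of 71 UMIs), and in B cells 10% and 6.67% (3 of 30 and 4 of 60). Tumor cells of all 4 libraries were above these immune sums, which rest on 2 to 4 UMIs of Myc each, and the difference in shares was not tested. Mxd1, Mxd4 and Mxi1 together made up 26.9% to 32.9% in tumor cells, 46.6% and 47.9% in macrophages and 88.5% in neutrophils (46 of 52 UMIs, 42 of them Mxd1), but 23.3% and 21.7% in B cells (7 of 30 and 13 of 60), below every tumor library. Mnt and Mga made up 26.7% and 41.7% in B cells against 15.8% to 19.3% in tumor cells.

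**Figure D4:**
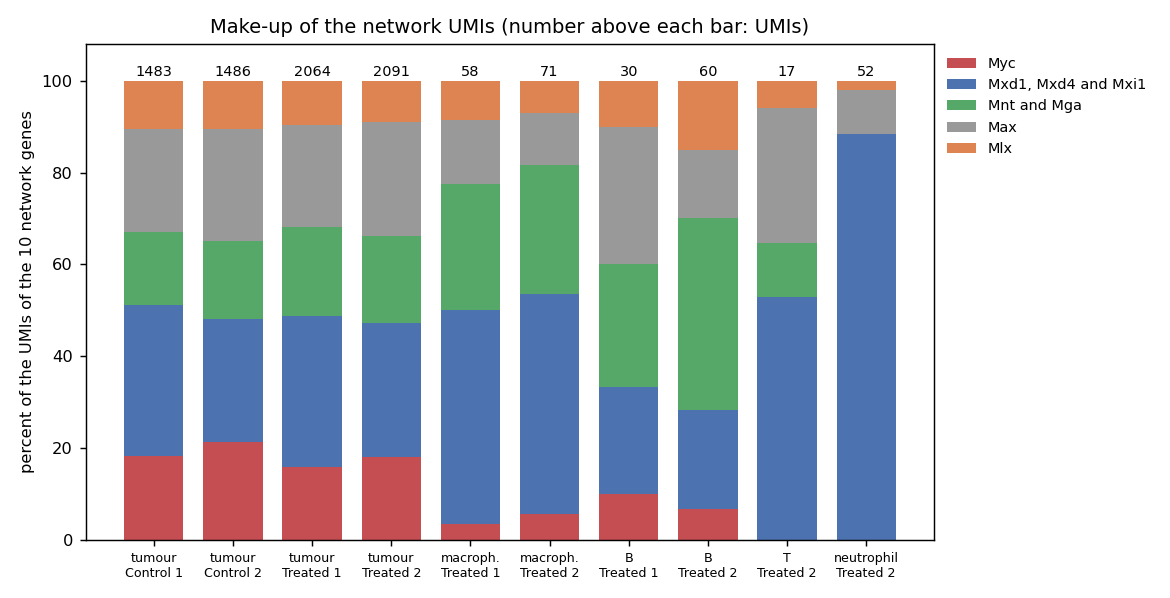
Percent of the UMIs of the 10 network genes (y axis) that belong to Myc, to Mxd1, Mxd4 and Mxi1, to Mnt and Mga, to Max and to Mlx, for each class and library with at least 20 cells (x axis), with the number of UMIs above each bar. Myc takes 15.9% to 21.3% in tumor cells and 3.45% to 10% in macrophages and B cells.

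Most tested genes known to be activated by MYC were higher in tumor cells than in each immune class, while Myc itself did not pass the filter. Of all genes tested, 31.8%, 27.4%, 17.9% and 27.5% were higher in tumor cells than in macrophages, B cells, T cells and neutrophils. The median log2 difference of all genes against neutrophils was 1.99. The filter kept genes at 39.7 CPM or more in any sum, tumor sums included. Genes high in tumor cells could thus be tested through those sums, and the list was not counted without the filter. Of 36 tested genes known to be activated by MYC, 34 were higher and 1 lower in tumor cells than in macrophages (median log2 difference 1.83, beside 0.08 for all genes), among them Odc1 of polyamine synthesis (4.07, SE 0.32), Ppat of purine synthesis (3.87, SE 0.64) and Nop2 of ribosome assembly (3.62, SE 0.67). Against B cells 29 were higher and 1 lower, and against T cells and neutrophils 24 and 31 were higher and 1 and 0 lower. The exception was Ccnd2, lower in tumor cells than in B cells by 7.27 on the log2 scale (log2 difference -7.27, SE 0.47). Many of these genes serve growth in any dividing cell. DESeq2 called 30 and 24 of the 36 against macrophages and B cells, beside 44.2% and 36.1% of all genes. Txnip, a target of MLX with its glucose-responsive partners, was lower in tumor cells in all 4 contrasts, from -3.53 (SE 0.59) against macrophages to -5.40 (SE 0.49) against B cells. It was at 2.38 to 4.07 CPM in the tumor sums, below the 39.7 CPM of the filter. Like Ccnd2, it was thus tested through the immune sums where it was high. Macrophages held 2 and 18 UMIs of Txnip, and the single T and neutrophil sums 8 each.

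Among the partners, Pcgf6, a subunit of the MGA Polycomb complex, was higher in tumor cells than in macrophages by 4.32 (SE 0.83, edgeR adjusted p = 7.72e-07), and the MYC-binding gene Mycbp by 2.46 (SE 0.47). In all, 4 of 12 tested partners were higher and 1 lower than in macrophages, where 62.8% of all genes were called, and 2 were higher and 4 lower than in B cells, where 54% were. Of 12 tested cofactors 5 were higher and 2 lower than in macrophages, led by the ATPase subunit Ruvbl2 at 2.70 (SE 0.34). Of 11 genes for MYC turnover 5 were higher and 3 lower, and of 8 MYC-repressed genes 2 were higher and 4 lower, led by Thbs1 (-6.33) and Gadd45b (-3.61). The shares called in these lists, partners to repressed genes, are to be read beside the same 62.8%. They rest on the same filter and were not counted without it.

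Within the tumor cells, the CPM of Myc was lower in G2/M than in G1, and that of Mxd4 was lower in S than in G1. The calls among members, 2 of 8, 2 of 8 and 1 of 8 in the 3 contrasts of phases, rest on few genes, lie near the shares of all genes called (14.3%, 20.6% and 13.2%) and are no result about the network as a whole. Phases were called in cells thinned to 5000 UMIs from lists of 43 S-phase and 54 G2/M genes that hold no member, with G1 for cells at or below the mean of both lists, so the phase shares are relative by construction. They were 24.3% to 31.2% for G1, 33.5% to 39.8% for S and 32.5% to 35.9% for G2/M, and 14.6% to 17.5% of cells lay within 0.05 of a limit between phases. As a check, the summed clustered histone genes were highest in S and Ccnb1 and Plk1 in G2/M in all 4 libraries. Median depth rose from G1 to S to G2/M in every library, for example from 9175 to 13291.5 UMIs in Control 1, and its part in the differences was not tested.

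Myc was at 32.0 and 41.7 CPM in the G1 cells of the controls and at 29.2 and 43.2 in those of the treated libraries. In S phase it was at 27.7, 33.6, 27.5 and 30.0 in the same order. In G2/M it was at 24.9 and 29.5 in the controls and at 25.1 ± 0.239 after SP11 (SD, n = 2), so it was lower at each step in 4 of 4 libraries, by more in Control 2 and Treated 2. The edgeR log2 difference, with the library as a block, was -0.35 for S against G1 (SE 0.10, adjusted p = 0.0129) and -0.56 for G2/M against G1 (SE 0.10, adjusted p = 4.16e-05). The lower CPM in G2/M held under all 16 alternatives (-0.65 to -0.45). The difference in S was lost under 5 of 16, with the highest edgeR adjusted p, 0.257, when barcodes found in several libraries were left out. G2/M against S, at -0.21 (edgeR adjusted p = 0.173), did not pass. These levels are shares of the UMIs. Control 1 held 81 Myc UMIs in 249 G1 cells and 94 in 282 G2/M cells, and Control 2 held 77 in 143 and 106 in 166. Treated 1 held 89 in 337 G1 cells and 118 in 401 G2/M cells, and Treated 2 held 106 in 140 and 123 in 206. The number of Myc UMIs per cell was not tested.

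Mxd4 was at 13.0, 9.75, 15.1 and 13.1 CPM in G1 and at 4.67, 6.31, 8.93 and 7.71 in S phase. It returned to 11.4, 7.79, 15.4 and 12.1 in G2/M. S was the lowest phase in 4 of 4 libraries, and G1 and S did not overlap over the libraries. The log2 difference was -0.92 for S against G1 (SE 0.18, edgeR adjusted p = 0.000199), which held under all 16 alternatives, and 0.72 for G2/M against S (SE 0.16, adjusted p = 0.00143), which was lost under DESeq2 (adjusted p = 0.0580) and when phases were scored against control genes (0.276).

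Max was called once, lower in G2/M than in G1 by a log2 difference of -0.27 (SE 0.09, edgeR adjusted p = 0.0312). Its level fell in 3 of 4 libraries and not in Control 2 (36.8 in G1 and 38.1 in G2/M), and the call was lost under 8 of 16 alternatives (adjusted p up to 0.795). Mxi1 was higher in S than in G1 in 4 of 4 libraries, with 30.4, 19.5, 34.5 and 30.2 CPM in G1 and 35.5, 36.8, 39.6 and 37.3 in S, but the difference of 0.29 did not pass (adjusted p = 0.0670). Mxd1 was lower in G2/M than in G1 in 4 of 4 libraries, at a difference of -0.54 that did not pass (adjusted p = 0.0770), and Mnt, Mga and Mlx were not called in any contrast. In all 2 of 8 members were lower in S than in G1, where 14.3% of 9966 genes were called (6.85% higher and 7.41% lower). Likewise 2 of 8 were lower in G2/M than in G1, where 20.6% were called (8.89% higher and 11.7% lower), and 1 of 8 was higher in G2/M than in S, where 13.2% were called (5.86% higher and 7.33% lower). With library totals in place of TMM the calls among all genes split as 1016 higher and 382 lower in place of 683 and 738 for S against G1, 1443 and 624 in place of 886 and 1169 for G2/M against G1, and 682 and 542 in place of 584 and 731 for G2/M against S. Myc (-0.29) and Max (-0.19) then lost their calls in S and in G2/M against G1.

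**Figure D5:**
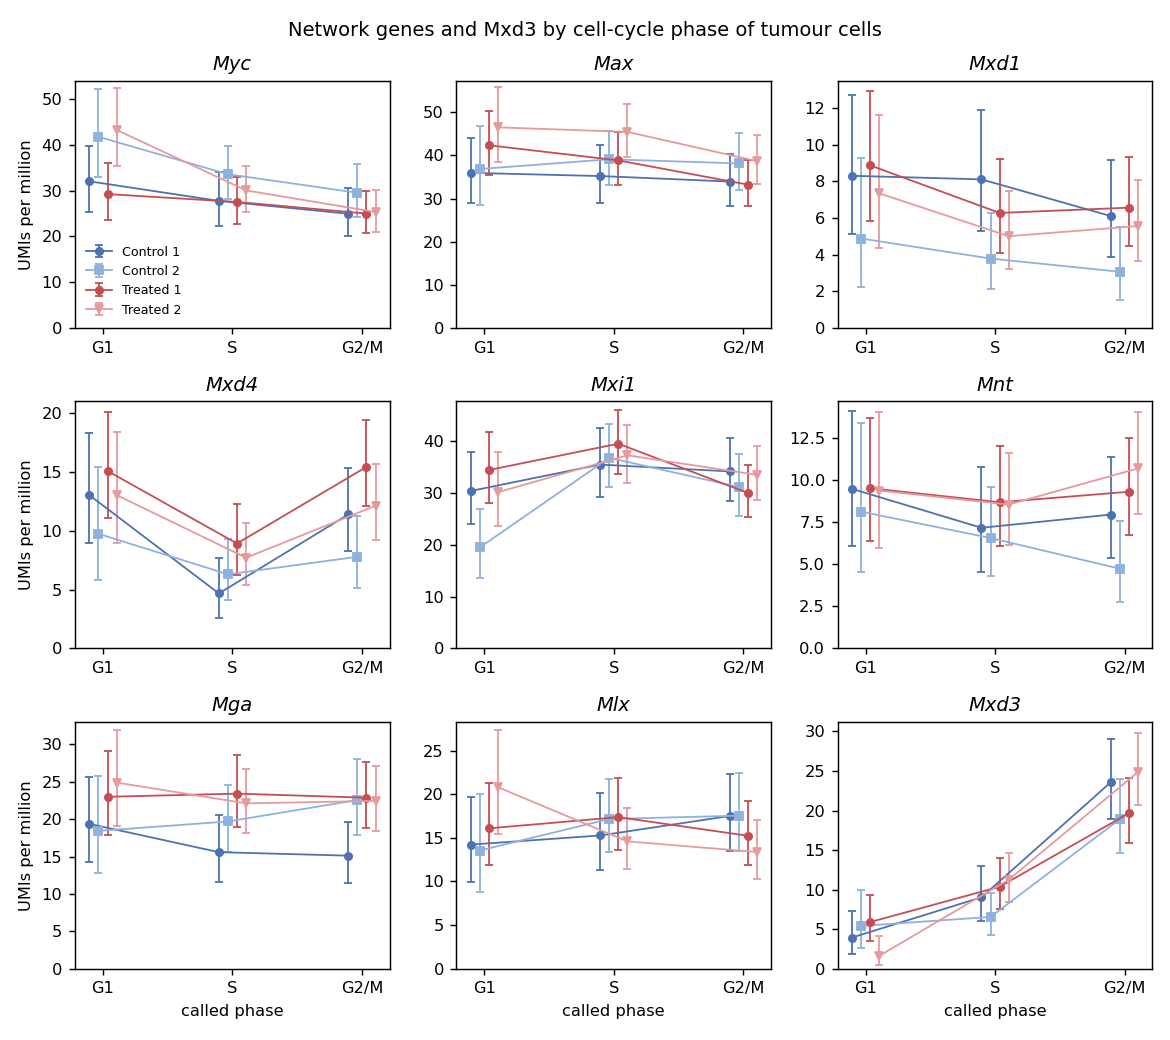
CPM (y axis) of the 8 detected members and of Mxd3 in tumor cells called G1, S or G2/M (x axis), 1 line per library, with exact 95% Poisson intervals that cover counting error only. Myc is lower at each step in 4 of 4 libraries, Mxd4 is lowest in S, and Mxd3 rises to between 18.9 and 24.9 in G2/M.

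The relative that changed most was Mxd3, an MXD gene known for expression in dividing cells and no member of the 10. It was at 3.95, 5.42, 5.91 and 1.63 CPM in G1, at 9.04, 6.56, 10.4 and 11.3 in S and at 23.6, 18.9, 19.7 and 24.9 in G2/M. The phases rose in 4 of 4 libraries, with G2/M above all sums of the other phases, and G2/M was higher than G1 by a log2 difference of 2.27 (SE 0.21, edgeR adjusted p = 1.65e-12). Mxd3 and Mxd4 thus had different patterns over the cycle. Among the other partners L3mbtl2 and Yaf2 of Polycomb complexes were higher in G2/M than in G1 by 0.50 and 0.26, and the corepressor Sin3b lower (-0.22), so that 3 of 16 partners were higher and 1 lower, beside 8.89% and 11.7% of all genes.

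Of 37 tested genes activated by MYC, 2 were higher and 14 lower in G2/M than in G1 (8.89% and 11.7% of all genes), and 0 were higher and 17 lower than in S (5.86% and 7.33%), with medians of -0.09 and -0.11 beside -0.01 for all genes in both. The genes that fell most from G1 were Rrp9 (-0.58, SE 0.07), Nop2 (-0.39), Wdr74 (-0.36) and Ppan (-0.36), all of ribosome assembly. S against G1 had 5 higher and 3 lower (6.85% and 7.41% of all genes). One gene of the list was also in the phase lists and was not counted. Of 7 tested genes repressed by MYC, the cell-cycle inhibitor Cdkn1b was higher in G2/M than in G1 (0.91, SE 0.12) and Ndrg1 lower (-0.38, SE 0.05), and Cdkn1a, the inhibitor p21, was higher in S than in G1 (0.62, SE 0.07). Of 15 genes for MYC turnover, 5 were higher and 0 lower in G2/M than in G1 (8.89% and 11.7% of all genes). The 5 include the mitotic kinase Plk1 (2.49), which was the check of the phases above, so its rise is no separate result. Cip2a (1.41), an inhibitor of the phosphatase that destabilizes MYC, was also higher. Plk1 and Cip2a serve mitosis in their own right.

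Whether SP11 acted differently by phase was tested in the same 12 sums with interaction terms. Of 9966 genes 8 were called (0.0803%), and none was a member: 0 of 8 passed in edgeR, 0 had an unadjusted p under 0.05 and DESeq2 called 0, with an adjusted p of 0.999 for each. In G1, where Myc was highest, it was at 36.9 ± 6.87 CPM in the controls and 36.2 ± 9.91 in the treated libraries (SD, n = 2 each). In G2/M it was at 27.2 ± 3.24 and 25.1 ± 0.239. The difference between treatments was smaller than the SD of the controls in both phases.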

How the data were processed

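Droplet single-cell RNA sequencing (10x Chromium) of 4 tumor libraries was analysed. The deposited values are raw UMI counts per gene and called cell, made by the authors with Cell Ranger (7.1.0 per the file headers). The processing notes in the labels name mm10, while the methods text names hg38; the gene identifiers are mouse, and coordinates are GRCm38.

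Kept cells (at least 200 genes, at most 10% mitochondrial UMIs) were gated by marker UMIs: Krt8 and Krt18 of 5 or more for tumor cells, and 3 or more (20 for neutrophils) for immune classes with at most 1 keratin UMI. A cell passing several immune gates entered no class. UMIs were summed per library and class (at least 20 cells), since cells are not replicates, and fitted across all genes with edgeR 4.0.16 (quasi-likelihood, TMM, filterByExpr; the library as a block for classes and phases) in R 4.3.3, p-values being adjusted after Benjamini and Hochberg and called under 0.05. DESeq2 1.42.0 was an alternative. Library UMIs of kept cells ran from 9574906 to 13024964. Shares were compared by exact permutation, and intervals of levels, shares and ratios cover counting error only, while those of fitted log2 differences come from the edgeR fit over libraries. Doublets were kept; cells with a Scrublet score over 0.25 (0.710% to 5.02%) were left out as an alternative, the limit being set because the automatic one called 88.9% of Control 1. Phase scores were means of standardised S and G2/M lists, chosen after scoring against control genes put most cells in G2/M. The scripts were tested on simulated counts. The comparison of SP11 with control in macrophages, and its difference from that in tumor cells, were planned but not made, since the controls held 14 and 9 such cells.

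The genes named are the members, up to 4 genes of each list past the threshold with the largest change, and the 5 genes most like Myc and Mxd1. The members, lists and tests were chosen with earlier results of these data known. Control 1 and Treated 1 share a number only.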

Additional observations from a re-analysis of the deposited data

How the results depend on the processing

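Of 183 alternative values for members called in a comparison, 154 kept the call, 29 lost it and 0 reversed; of 629 for members not called, 591 stayed so with the same sign, 7 passed and 31 changed sign. The immune sums were the least deep, and at 500 or more genes no neutrophil sum was left.

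For SP11 against control, 268 genes were called, 149 with DESeq2, 422 with 2 or more keratin UMIs, 155 without tumor cells that passed an immune gate, 506 with library totals and 128 with cells thinned to 5000 UMIs. Leaving out 1 library gave 78 (without Control 2) to 425 (without Treated 2). With the replicate number as a block (replicate block) it was 1038, but Control 1 and Treated 1 share only a number (correlation of deviations 0.286 over 7080 genes, with only 2 pairs); no member was called under it. Max changed sign at -0.011 without doublets and -0.015 without immune-gate cells, and Mxi1 at 0.086 with library totals. Without 1 library Max ran from -0.035 to 0.061, Mxd1 from -0.27 to 0.74 and Mxi1 from -0.12 to 0.039. Shares of cells at 2000 UMIs differed by -0.0211 percentage points for Mxi1 and 1.38 for Mlx, and without 1 library at 5000 UMIs by -1.58 to 3.71 for Max, -1.56 to 0.349 for Mlx, -0.486 to 1.39 for Mnt, -1.03 to 2.45 for Mxd4, -0.628 to 1.18 for Mxi1 and -0.307 to 3.18 for Myc.

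Between classes DESeq2 called 1013 genes against T cells and 1267 against neutrophils, and 1565 were called against neutrophils without shared barcodes. Mga against macrophages became 0.15 at 500 or more genes, 0.36 without shared barcodes, 0.16 with no filter on low counts and -0.039 to 0.0038 without 1 control. With no filter Max against B cells was 0.031. With immune gates at 2 UMIs Mxd1 against B cells was 1.33 and Mga against neutrophils -0.73. Leaving out a treated library gave no class fit.

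For phases DESeq2 called 819 genes for S against G1, 1152 for G2/M against G1 and 488 for G2/M against S, and 2 genes for SP11 by phase. Scored against control genes, 678 were called for S against G1, 229 for G2/M against S and 2 for SP11 by phase, with Mnt at 0.17 for G2/M against G1 and Myc at 0.0033 and Max at 0.15 for G2/M against S. Without shared barcodes 787 were called for G2/M against S and 5 for SP11 by phase, Mlx was at 0.12 for S against G1, Mxi1 at -0.058 for G2/M against G1 and Mnt at -0.093 for G2/M against S. With phases scored on all UMIs 5 were called for SP11 by phase and Mga was at 0.021 for S against G1 and -0.074 for G2/M against S; without immune-gate cells the count was also 5 and Mga -0.068. Without 1 library, G2/M against S gave 783 to 1071 calls, Mga -0.026 to 0.033, Mnt -0.039 to 0.19 and Mxd1 -0.20 to 0.0045; G2/M against G1 gave Mlx -0.25 to 0.073 and Mxi1 -0.042 to 0.19, and S against G1 gave Mlx -0.16 to 0.10. The cause of these changes was not tested. Shared barcodes and scoring against control genes were alternatives chosen after seeing the data.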

Other observations

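Over the 10 sums of cells used for the class comparison, the genes whose level followed that of Myc most closely among 10318 genes with at least 100 UMIs were Nudt14 (Pearson r of log2(CPM + 1) 0.997), Ktn1 (0.997), Tsr1 (0.996), Rpain (0.996) and Timm10 (0.995). For Mxd1 they were S100a8 (0.958), which is part of the neutrophil gate, Zbtb7b (0.947), Adipor1 (0.941), Cnot6 (0.932) and Grina (0.932). The 10 sums share libraries, and 4 of them are tumor cells. For Mxd1 the neutrophil sum of Treated 2 was at 901 CPM and the other sums at 3.69 to 24.5. For Myc the T and neutrophil sums had 0 UMIs. The correlations describe such contrasts between sums and were not tested.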
